A study of Mus musculus with 18 samples.

Results

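Accessibility of chromatin was compared between Id3 knockout (Id3-KO, genotype KO in the labels) and wild-type (WT) mouse CD4 T cells of the cell label Th1 at 24 h. Each genotype had 3 samples, which is 6 of the 18 samples of the study; the other 12 are KO and WT cells labelled Tcmp or Teff at 72 h, in 4 groups of 3. All cells started as naive CD4 T cells that were activated through CD3 and CD28 and grown under Th1 conditions, with IL2, IL12 and an antibody against IL4. The Id3 allele, the cells in which it was deleted and the number of mice or cultures behind each trio of samples are details not given in the sources used here. The comparison was chosen by its name in the authors' deposited table and holds 65983 of its 395898 rows, 1 row for each accessible region. One of the 3 KO samples at 24 h carries the title ID3, the same letters as the knockout side of the contrast's name. The contrast was read as all 3 KO against all 3 WT samples, and a measurement that bears on this is given with the spreads.

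Id3 is a helix-loop-helix protein without a DNA-binding domain. It pairs with E proteins, the transcription factors that bind E-box sequences and steer lymphocyte development and T cell activation, and keeps them off DNA. In CD4 T cells the balance of Id and E proteins is known to shape effector, memory and follicular helper fates. ATAC-seq reads open chromatin by letting a transposase cut and tag exposed DNA, so that a window of the genome with more tagged fragments is called more accessible. In a bulk sample, fewer cells with an open window and less opening in each cell cannot be told apart.

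The unit described is the window, a short stretch of the genome tested on its own, of which a region holds 1 to 16 (median 6). The table gives the log2 fold change of 1 window per region, here called the listed window, and a region p that is the window p times the number of windows. In the Th1 comparison the window p rose without a single fall through the 46454 rows in which it could be seen, and the listed window was the first one of its row in all 65983 rows. The running number of a window was for this reason taken as its rank by p, from 1 to 409588, and the statistics as 1 ordered set. No value is tied to a region or gene, so neither genes nor sequences are named for their values, and the targeted gene could not be checked.

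Chromatin of Id3-KO Th1 cells was mostly less accessible than that of WT cells at 24 h, as deposited. Of the 409588 windows 136592 were past an adjusted p of 0.05 by Benjamini-Hochberg adjustment of the authors' p-values, which is 33.3% of all. Of the listed windows with such ranks 20224 were lower in Id3-KO, 30.7% of all listed windows, and 1945 were higher, 2.95% of all listed windows. The lower ones had a median log2 fold change with a size of 0.94 (quartiles 0.78 and 1.16), and the higher ones one of 1.19 (quartiles 0.99 and 1.49). The smallest change that passed had a size of 0.63 on the log2 scale, which is 1.55-fold. By region, as deposited, 8368 rows (12.7%) passed the same threshold. Both the direction and the number of windows past the threshold depended on the zero of the scale. From the deposited zero, 22169 of the 65983 listed windows were past it. With the median of all listed windows subtracted and each window's spread read from its p, 6087 passed by a normal approximation. By a t approximation 6571 passed. The normal approximation gave 1405 lower and 4682 higher windows (23.1% lower), and the t approximation 2857 lower and 3714 higher (43.5% lower). The counts by window and by row measure the depth of the ranking and are not counts of changed genes.

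Low p-values reached far into the ranking. The window p was 5.85e-04 at the end of the first 10% of ranks, 0.0128 at 30% and 0.0505 at 50%, where evenly spread p-values would stand at 0.1, 0.3 and 0.5. It reached 0.329 at 80% of ranks, against 0.8. The p-values lay below that even spacing at each of these points. They measure change from the deposited zero, and on that scale the Th1 windows were centred at a median of -0.57 log2 units. The low p-values thus cannot be read apart from this displacement. Their spacing from another zero was not tested.

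The direction was known for more windows than the listed ones, because 2 further columns count the windows of a row that went up or down. Windows were counted in 17677 rows, those with a region p of at most 0.05, and in each of these rows all windows were counted. They hold 100849 windows, of which 91732 were lower in Id3-KO (91.0%, 95% Wilson interval 90.8 to 91.1) and 9117 higher. Up to rank 77867, 19.0% of all windows, no row was skipped, and every window there has a known direction. In this stretch 70598 windows were lower and 7269 higher, a share of 90.7% lower. The listed windows of the same rows gave 90.6%, and in this stretch the listed windows thus stood for the others in direction. At later ranks not every window has a known direction, and the match was not checked there. Over all 65983 listed windows, at any rank, the share lower was 84.1%. All Wilson intervals cover counting error only, and they are too narrow because neighbouring windows share reads.

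The windows with the very lowest p were less one-sided than those that followed them. In the rows that start in the first 0.1% of ranks, 347 of 414 windows were lower in Id3-KO (83.8%, interval 80.0 to 87.1). From 0.1 to 1% of ranks 3423 of 3684 were lower (92.9%, interval 92.0 to 93.7), and from 1 to 10% 33117 of 36861 (89.8%, interval 89.5 to 90.1). The higher windows thus made up 16.2% of the first stretch and 7.08% of the next. The difference between stretches has no test over samples, since the table holds no value per sample.

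The first rows show this mixture. In the authors' deposited table the window at rank 1 had a log2 fold change of -3.93 and the one at rank 8 had 5.35. The next listed windows, at ranks 11, 16 and 23, had -3.55, 2.81 and -3.06 in the authors' deposited table. The row that opens with rank 1 held 4 lower and 3 higher windows, and the row at rank 8 held 1 lower and 2 higher.

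**Figure D1:**
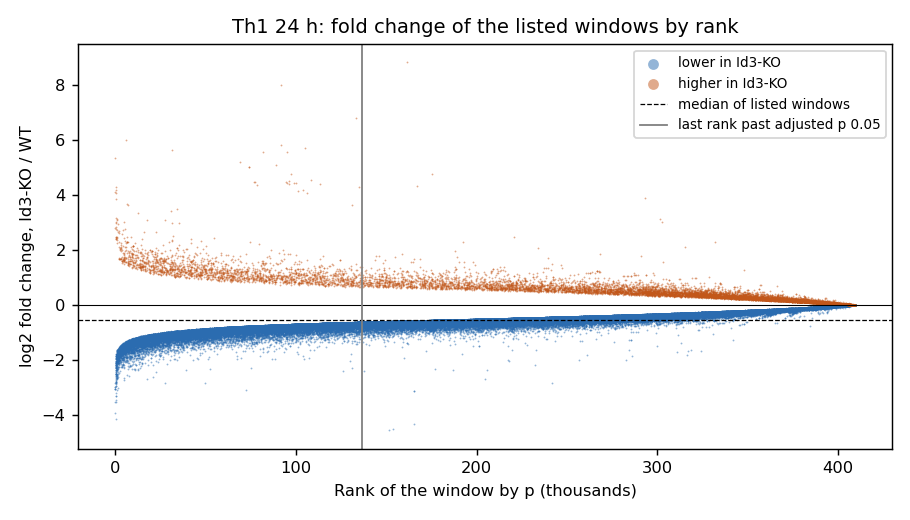
Log2 fold change (Id3-KO over WT) of the 65983 listed windows against their rank by p; blue points are lower and orange points higher in Id3-KO, the dashed line is the median of -0.57 and the grey line the last rank past the threshold, 136592. The blue band is dense and hugs a narrow range at each rank, while the orange band is sparse and wider, with a separate scatter of points above 4.

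Across the ranking the listed windows were mostly lower in all 12 rank bins. The share was 80.3% in the first 0.1% of ranks (49 of 61 listed windows) and 93.0% from 0.1 to 1%. Between 1 and 50% of ranks it stayed between 89.9% and 92.3%, with its top from 30 to 40%. It then came down to 89.7% from 50 to 60%, 79.7% from 70 to 80%, 71.3% from 80 to 90% and 56.7% (interval 55.5 to 57.9) in the last 10%. The late bins hold windows with fold changes near 0 by construction, with a median of -0.23 from 80 to 90% of ranks and -0.03 in the last 10%. Among all 43814 listed windows after the threshold 80.5% were lower, with a median log2 fold change of -0.43 (quartiles -0.59 and -0.13). The excess of lower windows was thus not limited to those past the threshold.

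**Figure D2:**
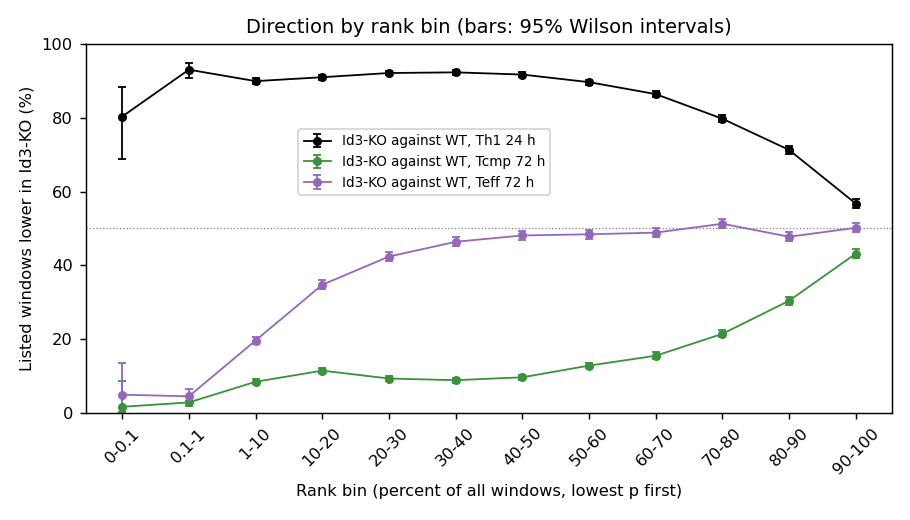
Percentage of listed windows lower in Id3-KO in 12 rank bins (percent of all windows, lowest p first) for the 3 knockout comparisons; points are shares, bars 95% Wilson intervals and the dotted line 50%. The Th1 24 h line lies above 50% in all 12 bins and peaks at 93.0%, the Tcmp 72 h line lies below 50% in all of them, and the Teff 72 h line starts at 4.92% and reaches about 50% in the late bins.

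The whole distribution was displaced toward lower accessibility in Id3-KO. Over all 65983 listed windows the log2 fold change had a median of -0.57 (95% interval from order statistics -0.57 to -0.56, counting error only), a level 1.48-fold lower. Of all listed windows 55514 were below 0 (84.1%), and 48.4% lay within 0.25 of the median. The mean was -0.48, closer to 0 than the median. The scaling of the libraries, not given in the sources used here, sets the zero of this scale, and the part of scaling in this displacement was not tested. The displacement has no replicate error, because no sample has a value of its own.

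Around that displaced centre the distribution was lopsided in the opposite direction. The 5th percentile lay at -1.29 and the 95th at 0.66, which puts them 0.72 below and 1.23 above the median. The 1st percentile lay 1.17 below the median and the 99th 1.94 above it. The long side was therefore the side of higher accessibility in Id3-KO, although most windows were lower.

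**Figure D3:**
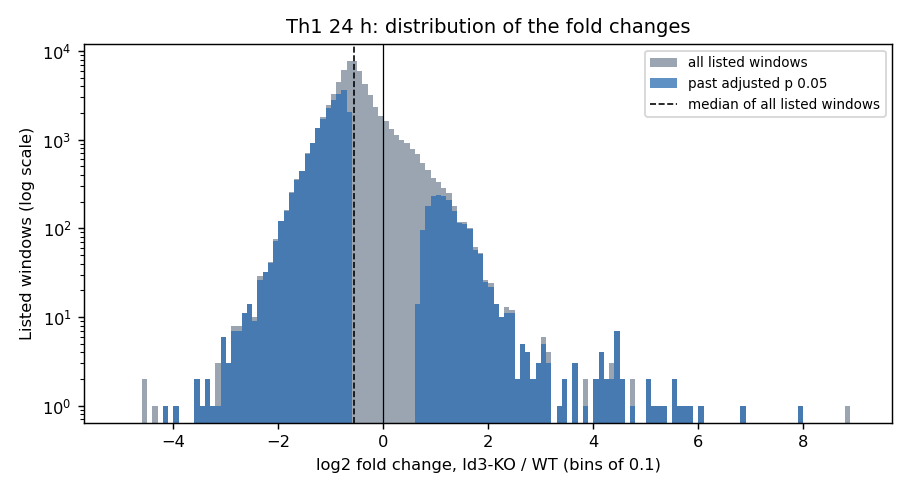
Number of listed windows (log scale) by log2 fold change in bins of 0.1 for the Th1 comparison; grey bars are all 65983 listed windows, blue bars those past an adjusted p of 0.05, the solid line is 0 and the dashed line the median of -0.57. The peak lies left of 0, the right flank falls less steeply than the left, and windows between -0.63 and 0.63 never pass the threshold.

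The balance of the tails depended on where they were measured from. Counted from 0, 8799 listed windows were more than 1 log2 unit lower in Id3-KO and 1673 more than 1 unit higher. Of these, 8465 lower and 1426 higher ones were past the threshold. At more than 2 units, a 4-fold change, 252 were lower and 143 higher. At more than 3 units, an 8-fold change, the order turned, with 20 lower and 54 higher, and at more than 4 units 4 were lower and 36 higher. The share of the tail that was lower thus went from 84.0% past 1 unit to 63.8% past 2 units and 27.0% (interval 18.2 to 38.1) past 3 units.

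Counted from the median of -0.57, the upper tail was the larger one at each distance examined. More than 1 unit from it lay 5093 listed windows above and 1291 below, 3.94 above for each one below (95% interval 3.71 to 4.19, counting error only). At 0.5 units the ratio was 1.64 and at 2 units 10.7, with 579 windows above and 54 below. The upper bound at 0.5 units was a log2 fold change of -0.07, so some windows above it were lower in Id3-KO as deposited. A window 1 unit above the median has a deposited log2 fold change of 0.43, and of the 5093 windows above that level 1945 were past the threshold. Of the 1291 windows below -1.57, 1262 were past it. The threshold was set on changes from the deposited zero, and no listed window with a size under 0.63 passed, so these pass counts cannot be compared between the sides.

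**Figure D4:**
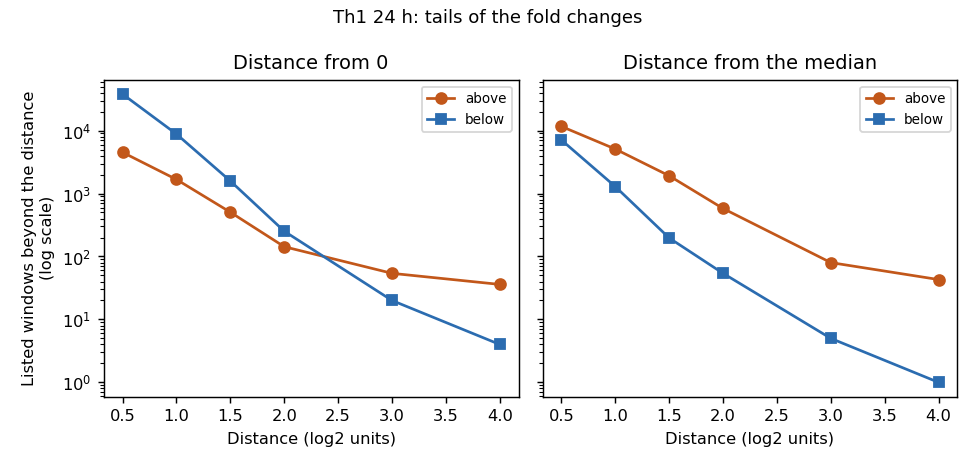
Number of listed Th1 windows (log scale) further than 0.5, 1, 1.5, 2, 3 and 4 log2 units above (orange circles) or below (blue squares) a zero point, which is 0 on the left and the median of -0.57 on the right. The lines cross between 2 and 3 units on the left, from 252 below and 143 above to 20 below and 54 above, and do not cross on the right.

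At equal rank, higher windows had larger fold changes than lower ones, measured from the deposited zero. From 0.1 to 1% of ranks the median size on the log2 scale was 2.11 in the 42 higher and 1.78 in the 561 lower listed windows. From 10 to 20% it was 1.16 (quartiles 1.02 and 1.32) in 596 higher windows and 0.93 (quartiles 0.85 and 1.06) in 6019 lower ones. The gap narrowed to 0.10 from 50 to 60% and to 0.01 from 80 to 90% of ranks. The median was larger for higher windows in 11 of 12 bins, all but the last 10% of ranks, where it was 0.09 against 0.10. Windows of equal rank have nearly equal p, so a larger change at the same rank goes with a larger spread. Equal rank here means the same bin, and a bin holds a range of p. In the first 0.1% of ranks the window p ran from 3.69e-34 to 2.24e-11, so there a larger change need not mean a larger spread.

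**Figure D5:**
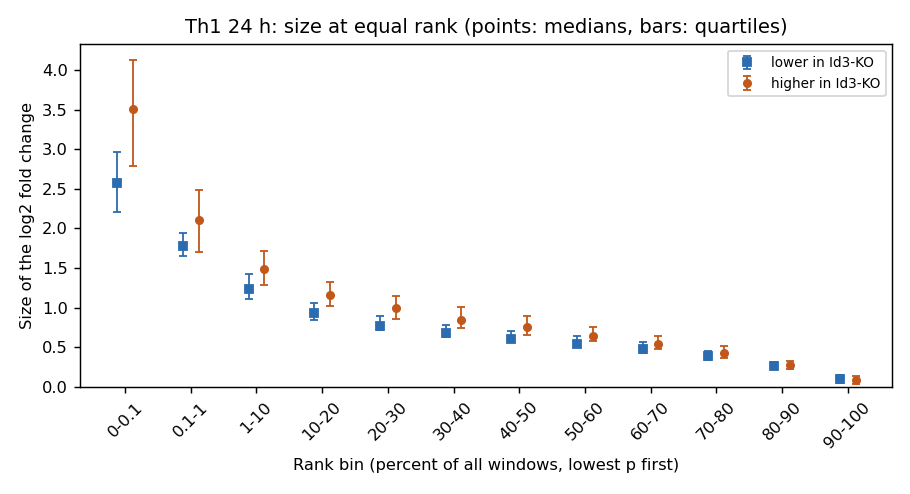
Size of the log2 fold change in 12 rank bins (percent of all windows, lowest p first) for listed Th1 windows that were lower (blue squares) or higher (orange circles) in Id3-KO; points are medians and bars run from the lower to the upper quartile. The orange point lies above the blue one in each bin but the last, by 0.94 in the first 0.1% of ranks and by 0.23 from 10 to 20%.

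The spread behind a window was read back from its fold change and p by a normal approximation, for the 57315 listed windows with a p under 0.5. It had a median of 0.31 log2 units (quartiles 0.28 and 0.36), and 90% of its values lay between 0.27 and 0.46. It was 0.30 at the median in lower windows and 0.36 in higher ones. At the low end the spread of the Th1 comparison (5th percentile 0.27) was close to that of the Tcmp (0.26) and Teff (0.27) knockout comparisons, and the comparison that pools both labels at 72 h had 0.19. The Th1 value was 1.42 times that of the pooled comparison, 1.01 times that of Tcmp and 0.992 times that of Teff cells. At the median the Th1 spread of 0.31 stood beside 0.31 in Tcmp, 0.34 in Teff and 0.23 in the pooled comparison. It was thus less close to Teff there than at the low end. Under a common spread, 3 against 3 samples would give 1.41 times the spread of 6 against 6, and 1 against 3 samples 1.41 times that of 3 against 3. The Tcmp and Teff knockout comparisons are named in the same form as the Th1 one, so the ratios to them cannot by themselves tell these readings apart. The comparison of Teff with Tcmp in WT cells, which has no knockout side, had a 5th percentile of 0.26.

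The most extreme fold changes in either direction did not have the lowest p. In the authors' deposited table the highest log2 fold change was 8.84, at rank 161195 and with a window p of 0.0256, which did not pass the threshold. The next, 8.00 at rank 91729 in the authors' deposited table, did pass. The lowest 3 values in the authors' deposited table, -4.57, -4.52 and -4.32, lay at ranks 151554, 153743 and 165007 and did not pass. The lowest value that passed was -4.14, at rank 245 in the authors' deposited table. Of the 36 listed windows above 4 log2 units, 5 were in the first 0.1% of ranks, none from 0.1 to 1%, and 27 between 10 and 40%. The first 0.1% held only 61 listed windows, and the bins from 10 to 40% held 6615, 6696 and 6618. For the number of windows in each bin, those above 4 units were thus most frequent at the lowest p. The 27 windows between 10 and 40% had a median log2 fold change of 4.52 and a median spread of 1.72, against 0.31 for all windows. The 7 such windows in the first 10% of ranks had a median of 4.28 and a median spread of 0.54. The spread is computed from the fold change and the p, so a large change at a later rank has a wide spread by construction.

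At the threshold itself the ranking was continuous, which follows from the order by p. In the authors' deposited table the last 3 listed windows inside it, ranks 136584 to 136592, had log2 fold changes of -0.66, -0.64 and -0.65, and the first 3 outside, ranks 136596 to 136608, had -0.91, -0.64 and -0.76. The window p was 0.0167 on both sides. All 6 were lower in Id3-KO, as were 92.3% of the listed windows from 30 to 40% of ranks.

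The same description was made for the knockout comparisons at 72 h, which share no sample with the Th1 comparison if each used the samples of its own label. Cell label and time change together between them, so their parts cannot be told apart, and no difference between comparisons has a test over samples. The share of windows past the threshold was 31.8% in Tcmp and 14.0% in Teff cells, against 33.3% in Th1 cells. Listed windows past it were lower in Id3-KO in 2017 cases (3.06%) and higher in 19104 (29.0%) in Tcmp cells, and lower in 2067 (3.13%) and higher in 7231 (11.0%) in Teff cells. From the deposited zero the majority thus lay on the lower side in Th1 and on the higher side in Tcmp and Teff cells. With its median subtracted, the Th1 majority lay on the higher side, with 76.9% of windows past the threshold higher by the normal and 56.5% by the t approximation. This count was not made with the Tcmp or Teff median subtracted, so it has no counterpart in those cells.

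The lowest p-values came with opposite directions in Th1 cells and at 72 h, from the deposited zero. In the first 0.1% of ranks 5 of 414 windows were lower in Id3-KO in Tcmp cells (1.21%) and 31 of 414 in Teff cells (7.49%), against 347 of 414 in Th1 cells. From 0.1 to 1% of ranks the share lower was 92.9% in Th1, 2.28% in Tcmp and 4.94% in Teff cells. The median listed log2 fold change in the first 0.1% was 4.73 in Tcmp, 3.61 in Teff and -2.38 in Th1 cells. Gains of more than 3 log2 units numbered 1339 in Tcmp and 498 in Teff cells and 54 in Th1 cells, while losses of that size numbered 48, 26 and 20. From the deposited zero the difference in numbers was thus larger for strong gains than for strong losses. More than 3 units from their own medians, 707 listed windows lay above in Tcmp, 448 in Teff and 80 in Th1 cells. Below lay 84, 32 and 5. Th1 cells had the fewest on both sides by either zero, and which side differed more in proportion depended on the zero.

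The centre of the distribution lay below 0 in Th1 cells, above 0 in Tcmp cells and near 0 in Teff cells, while its long side was shared. The median was -0.57 in Th1, 0.51 in Tcmp and 0.07 in Teff cells. The half-sample mode was -0.55, 0.55 and -0.01, so that the sign in Teff cells depended on the measure. The distance from the median to the 95th percentile was 1.69 times that to the 5th in Th1 cells, 1.48 times in Tcmp and 1.77 times in Teff cells. More than 1 unit from their own medians, 6610 listed windows lay above and 4301 below in Tcmp cells, and 6922 above and 2525 below in Teff cells, against 5093 and 1291 in Th1 cells. The ratio of 3.94 in Th1 cells stood beside 1.54 in Tcmp and 2.74 in Teff cells. Larger changes at equal rank for higher than for lower windows, seen in 11 of 12 bins in Th1 cells, were found in 10 of 12 bins in Teff and 2 of 12 in Tcmp cells. In Tcmp cells, whose median was above 0, the lower windows thus had the larger changes in most bins. The part of the displaced centre in these sizes was not tested.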

How the data were processed

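The submitters' processing notes name edgeR, Picard, BWA, Trim Galore and the build GRCm39, with versions, roles and order not given in the sources used here. The deposited table holds, per the file headers, the authors' log2 fold change of 1 window per region, p-values and adjusted p-values by region, numbers of windows in all and counted as up or down, the running number of the listed window and the region width, which have no unit beyond windows and bp. It has no value per sample, so depth is unknown and nothing has an SD.

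Window p-values were taken as region p divided by the number of windows, and interpolated over rank where the region p was 1. A fall was called beyond a relative tolerance of 1e-09. Benjamini-Hochberg adjustment ran over all 409588 ranks (Python 3.11.15, numpy 2.4.6, pandas 2.3.3, scipy 1.17.1, matplotlib 3.10.9). The reading of running numbers as ranks rests on the order of the table. Rank bins were 10 equal ones, the first divided at 0.1 and 1%. The code was tested on simulated data. The comparison, bins and alternatives were chosen with earlier results of these data known, and no gene was named for its values by rule. Where replicates are technical, p-values measure only the spread between these samples.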

Additional observations from a re-analysis of the deposited data

How the results depend on the processing

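No paired analysis was possible because single samples have no values in the table; leaving out replicates, other scalings and filters on low values were not run for the same reason, and what depth limits could not be judged. Windows past the threshold numbered 52696 at an adjusted p of 0.01 and 3658 by Bonferroni adjustment. Rows past it as deposited numbered 3975 at 0.01. The lower share of listed windows past the threshold was 90.1% at 0.01 and 85.6% with a size of at least 1 log2 unit. It turned with the zero point, to 23.1% with the median subtracted by a normal approximation of the spread, 43.5% by a t approximation with 12 degrees of freedom, and 24.3% with the half-sample mode subtracted (added after the data were seen). Centring on the median left 6087 listed windows past the threshold by the normal approximation, and 3347 of these had also passed uncentred. Those comprised 1405 lower and 1942 higher ones, and by the t approximation 2857 and 1941. The lower share of counted windows was 90.1% in the first 10% of ranks.

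The offset was -0.48 as the mean, -0.55 as the half-sample mode, -0.43 in ranks after the threshold and -0.58 in regions with 1 window. The number of windows above per window below was 1.64, 9.72, 10.7 and 16 at distances of 0.5, 1.5, 2 and 3, 2.56 around the mean and 4.37 without the least precise windows (added after the data were seen), and it turned to 0.19 with no offset subtracted, by construction. The other alternatives kept direction and stayed within the counting interval or within 1.5 times the count.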
